A study of Capra hircus with 6 samples.

Results

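STAT3, MCL1 and CLU are genes of cell survival and of involution, the regression of the mammary gland once milk is no longer removed. Their probes were found by the gene symbol in the platform annotation, but the genes were chosen with earlier results of these data known. Each gene is carried by 1 probe, so 3 of the 6535 genes named on the array are described here. The gland RNA came from 3 goats of the Low CSN1S1 genotype and 3 goats of the High CSN1S1 genotype, all of them lactating and all deprived of food for 48 h, so no fed goat entered the comparison. CSN1S1 encodes alpha-s1-casein, and the Low genotype makes little of it. The goats formed 3 pairs, A, B and C, each with 1 Low and 1 High goat, and each pair was hybridized together on 2 arrays of oligonucleotide probes. The array is known as a bovine design, which is background and not from the labels, and the match of each probe to the goat transcript was not tested. On the first array of a pair the Low goat was in the dye Cy5 and the High goat in Cy3, and on the second the dyes were exchanged. Age, breed and stage of lactation are not given in the sources used here.

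STAT3 is a transcription factor that cytokines of the interleukin-6 family switch on through a shared receptor and JAK kinases. In the mouse gland it is the factor that starts involution, taking over from STAT5, which keeps milk genes on during lactation. MCL1 is a short-lived member of the BCL2 family that holds back the cell death effectors at the mitochondrion, and the mouse gland needs it to keep its secretory cells in lactation. CLU encodes clusterin, a secreted chaperone that binds damaged proteins, restrains the terminal complement complex and is abundant in the regressing gland.

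All values below are on the log2 scale unless a raw scanner signal is named, and ratios are Low over High, so below 0 the Low goat was the dimmer of the pair. Averaging the 2 arrays of each pair leaves n = 3 pairs, whose values are listed in the order A, B, C, and a probe passed when the adjusted p of limma's moderated test was under 0.05. Of 6733 probes tested across the array 30 passed, or 0.446%, and 0 of the 3 genes did. Of the 30, Low goats were lower for 28 (0.416% of those tested) and higher for 2 (0.0297%). CSN1S1, read as a check of the labels, had a ratio of -2.71 ± 0.13 (SD, n = 3). The median probe read 2.66 to 6.01 times its background, and the probes of the 3 genes stood above background in 12 of 12 readings each, with 0 saturated and 0 flagged spots. With 3 pairs, an exact sign-flip permutation test of 1 gene cannot give a two-sided p below 0.25.

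The STAT3 probe, Bt00000335, was dimmer in the Low goats of pairs B and C but not in that of pair A. Its ratio was 0.31 and -0.19 on the 2 arrays of pair A, with the Low goat in Cy5 and in Cy3. In pair B the arrays gave -0.27 and -0.39, and in pair C they gave -0.30 and -0.68. Every array of pairs B and C was thus below 0, and pair A held the only array above 0. The pair means were 0.06, -0.33 and -0.49, a mean of -0.25 ± 0.29 (SD, n = 3) and a linear ratio of 0.840. The difference did not pass (limma, unadjusted p = 0.0141, adjusted p = 0.332), and the exact sign-flip permutation test gave p = 0.5. The unadjusted p is the 283rd smallest of the 6733, and 11.3% of probes had an unadjusted p under 0.05. Limma's 95% interval, -0.44 to -0.06, borrows the spread of all probes, whereas the SD of STAT3 between pairs was at the 99.6th percentile of the probes tested. Without pair A, on pairs B and C only, the mean was -0.41 and passed (limma, adjusted p = 0.00295). In that fit 67 probes passed across the array, beside 30 with all pairs. The STAT3 mean did not pass without pair B (-0.21, limma, adjusted p = 0.671) or without pair C (-0.13, limma, adjusted p = 0.784).

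**Figure D1:**
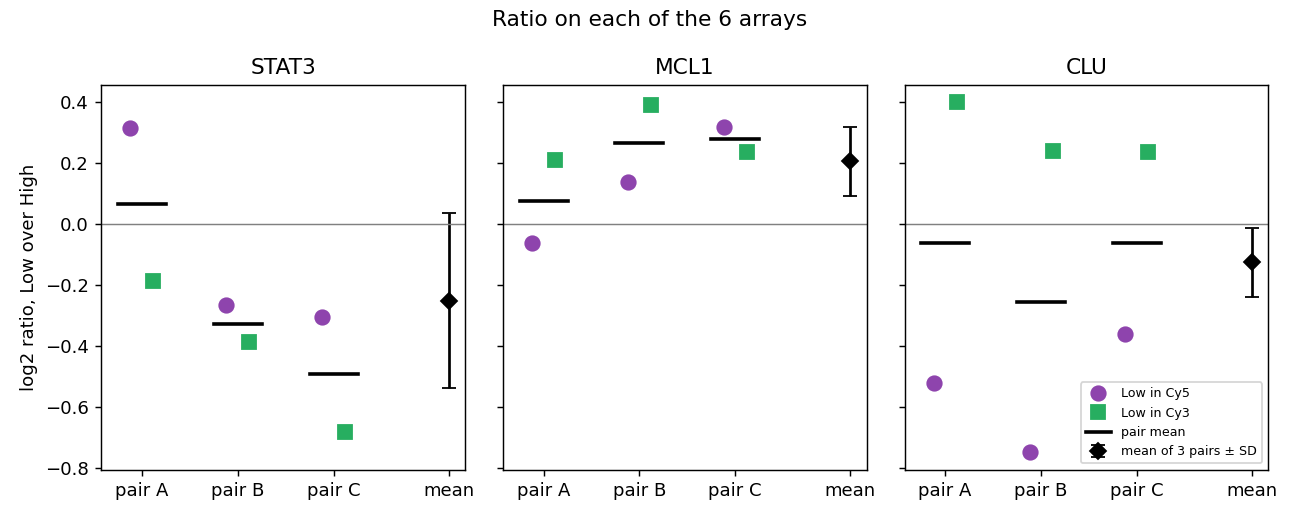
Log2 ratio of Low over High for STAT3, MCL1 and CLU on the 6 arrays, by pair, with circles for arrays that carried the Low goat in Cy5 and squares for those that carried it in Cy3. Bars are pair means and diamonds the mean of 3 pairs with its SD: STAT3 was below 0 on 5 of 6 arrays, MCL1 above 0 on 5 of 6, and CLU changed sign with the dye in each pair.

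The raw signals behind these ratios came from bright spots. In pair A the STAT3 signal mean, in scanner units, was 4437 (Cy5) and 4779 (Cy3) in the Low goat, against 3228 (Cy3) and 5757 (Cy5) in the High goat. In pair B it was 3615 (Cy5) and 1823 (Cy3) in the Low goat, against 4324 (Cy3) and 2289 (Cy5) in the High goat. In pair C the Low goat gave 4222 (Cy5) and 1821 (Cy3), against 4694 (Cy3) and 3342 (Cy5) in the High goat. Signals over background ran from 27.1 to 162 over the 12 readings, and the 2 spots of an array differed by at most 0.064 in their ratio.

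Whether the 3 pairs differed from each other was tested against the error between arrays of a pair, after removing the dye. For STAT3, pair B lay 0.39 below pair A and pair C lay 0.56 below it, with F = 12.7 (limma, unadjusted p = 7.26e-04, adjusted p = 0.186). This was the 26th smallest p of 6733 probes, of which 0.208% passed, and STAT3 did not, while 4.19% had an unadjusted p under 0.05. For MCL1 (F = 2.00) and CLU (F = 1.88) the adjusted p was 0.9995 in the same limma fit. The arrays of a pair hold the same RNA, so this test speaks of these goats and not of other goats of either genotype. Over all tested probes, however, the Low over High ratios of the 2 arrays correlated negatively. Pearson r was -0.54 in pair A, -0.54 in pair B and -0.13 in pair C, and the cause was not tested.

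The MCL1 probe, Bt00007432, was brighter in the Low goat of all 3 pairs, on the mean of both dyes. Its ratio was -0.06 and 0.21 on the arrays of pair A with the Low goat in Cy5 and in Cy3, 0.14 and 0.39 in pair B, and 0.32 and 0.24 in pair C. It was above 0 on 5 of 6 arrays, the exception being the first array of pair A, and 15.9% of probes kept 1 sign on at least 5 arrays. By their mean, 51.8% of probes were above 0. The pair means were 0.07, 0.26 and 0.28, a mean of 0.20 ± 0.11 (SD, n = 3) and a linear ratio of 1.15. The difference did not pass (limma, unadjusted p = 0.00159, adjusted p = 0.170, 95% interval 0.10 to 0.31). It ranked 61st by p among the 6733 probes, and the exact sign-flip permutation test gave p = 0.25, the smallest it can give. Pairs B and C lay close together, and without pair A, on these pairs only, the mean was 0.27 and passed (limma, adjusted p = 0.0240). It did not pass without pair B (0.18, limma, adjusted p = 0.545) or without pair C (0.17, limma, adjusted p = 0.454). Print-tip loess, which fits a curve to each printed block of the array, lowered the mean to 0.13, and median centring raised it to 0.25.

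The MCL1 signal was far above background, at 77.0 to 352 times it. In pair A the Low goat gave 24379 (Cy5) and 19966 (Cy3) scanner units, against 22811 (Cy3) and 17999 (Cy5) in the High goat. In pair B the Low goat gave 10109 (Cy5) and 9521 (Cy3), against 9050 (Cy3) and 7020 (Cy5) in the High goat. In pair C it was 12227 (Cy5) and 11146 (Cy3) in the Low goat, against 8768 (Cy3) and 11166 (Cy5) in the High goat. Both goats of pair A gave the brightest readings of their genotype, on both of that pair's arrays.

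The CLU probe, Bt00006868, changed sign with the dye in every pair. With the Low goat in Cy5 its ratio was -0.52, -0.75 and -0.36, and with the Low goat in Cy3 it was 0.40, 0.24 and 0.23. The 2 sets of arrays did not overlap, as was so in the same direction for 25.5% of probes, and they lay on opposite sides of 0, as for 15.4%. The pair means, in which an equal dye effect cancels, were -0.06, -0.26 and -0.06. Their mean of -0.13 ± 0.11 (SD, n = 3), a linear ratio of 0.916, did not pass (limma, unadjusted p = 0.0225, adjusted p = 0.382, 95% interval -0.23 to -0.02). The 3 pair means were all below 0, and 35.5% of probes kept 1 sign in 3 pairs. When 1 array was left out, so that its pair kept only 1 dye orientation, the mean lay between -0.29 and 0.038.

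The CLU signal was 8.24 to 41.4 times its background, and its spots on an array differed by up to 0.26. In pair A the Low goat gave 1869 (Cy5) and 2360 (Cy3) scanner units, against 2468 (Cy3) and 1911 (Cy5) in the High goat. In pair B it was 385 (Cy5) and 1668 (Cy3) in the Low goat, against 701 (Cy3) and 1352 (Cy5) in the High goat. In pair C it was 762 (Cy5) and 1844 (Cy3) in the Low goat, against 902 (Cy3) and 1774 (Cy5) in the High goat. Both channels were low on the first arrays of pairs B and C, although the second arrays carried the same RNA.

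The part of each ratio that follows the dye was taken as 0.5 times the difference between the 2 arrays of a pair, Low in Cy5 minus Low in Cy3. A value below 0 means a probe relatively brighter in Cy3. For CLU it was -0.46, -0.49 and -0.30, a mean of -0.42 ± 0.10 (SD, n = 3), and it passed (limma, adjusted p = 3.84e-05). Its size was 3.29 times that of the CLU genotype ratio. For STAT3 it was 0.25, 0.06 and 0.19, a mean of 0.17 ± 0.10 that passed as well (limma, adjusted p = 0.0113), and it was 0.661 times the size of the genotype ratio. Without pair A it was 0.12 and did not pass (limma, adjusted p = 0.162). For MCL1 it was -0.13, -0.13 and 0.04, a mean of -0.07 ± 0.10 that did not pass (limma, adjusted p = 0.223). A dye part passed in 39.7% of all probes (19.1% below 0 and 20.6% above 0), and whether 2 of these 3 genes is more than that was not tested. By size, the dye part of CLU stood at the 98.8th percentile of the probes tested, that of STAT3 at the 75.1st and that of MCL1 at the 40.2nd.

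**Figure D2:**
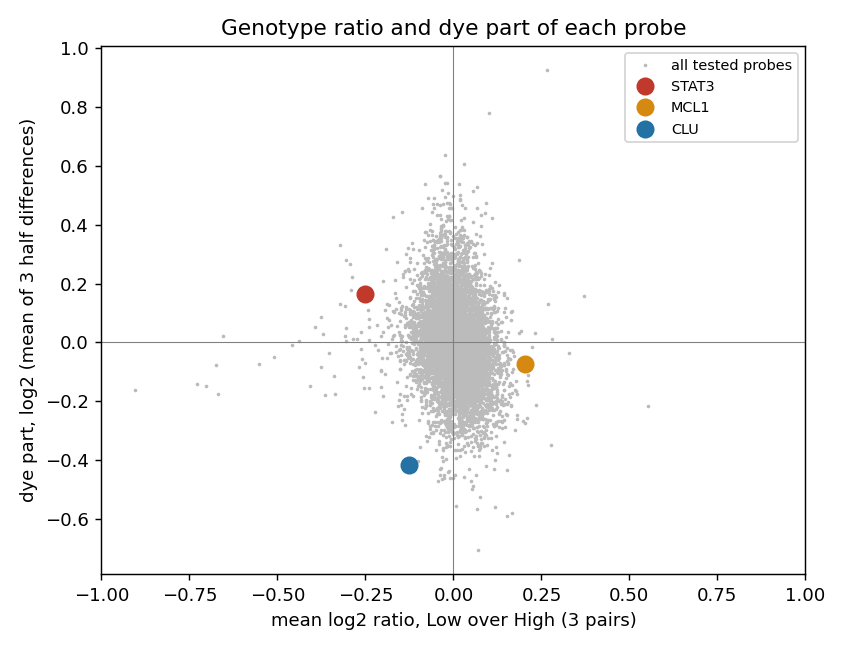
Mean log2 ratio of Low over High (x axis) against the dye part (y axis, log2) for the tested probes, with STAT3, MCL1 and CLU marked. The x axis ends at -1 and 1, which leaves 3 probes outside. CLU lay at -0.13 on the genotype axis and -0.42 on the dye axis, while STAT3 and MCL1, at -0.25 and 0.20, lay farther out on the genotype axis.

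Levels of single goats were read from the separate channels after normalization within and between arrays, as the mean of a goat's 2 readings. STAT3 had a level of 12.04, 11.48 and 11.38 in the Low goats, against 11.98, 11.81 and 11.87 in the High goats. The Low goats averaged 11.63 ± 0.36 and the High goats 11.88 ± 0.09 (SD, n = 3 each), and the ranges overlapped because the Low goat of pair A was the highest of the 6. MCL1 had 14.22, 13.46 and 13.51 in the Low goats, against 14.14, 13.20 and 13.24 in the High goats. Its means were 13.73 ± 0.42 in Low and 13.53 ± 0.54 in High goats (SD, n = 3 each), and the genotypes overlapped, as pair A was high in both. CLU had 10.97, 9.81 and 10.14 in the Low goats, against 11.03, 10.06 and 10.21 in the High goats. Its means were 10.31 ± 0.60 in Low and 10.43 ± 0.52 in High goats (SD, n = 3 each), so the genotype means lay closer together than the goats of either genotype. Paired goats were read on shared arrays, so in these levels a pair's goats and its arrays cannot be told apart.

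The readings of 1 goat on its 2 arrays showed how far a level can be trusted. They differed by up to 0.90 for STAT3, 0.45 for MCL1 and 2.05 for CLU. For CLU the mean of both channels, first minus second array, was -1.56 in pair B and -1.29 in pair C, which are shifts at the 95.0th and 96.1st percentile of all tested probes. In pair A the same shift was -0.03. The other probes printed in the same block shifted by a median of -0.37 in pair B and 0.11 in pair C. The part of the array in these shifts was not tested further, and they drop out of the ratio, which is taken within an array.

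**Figure D3:**
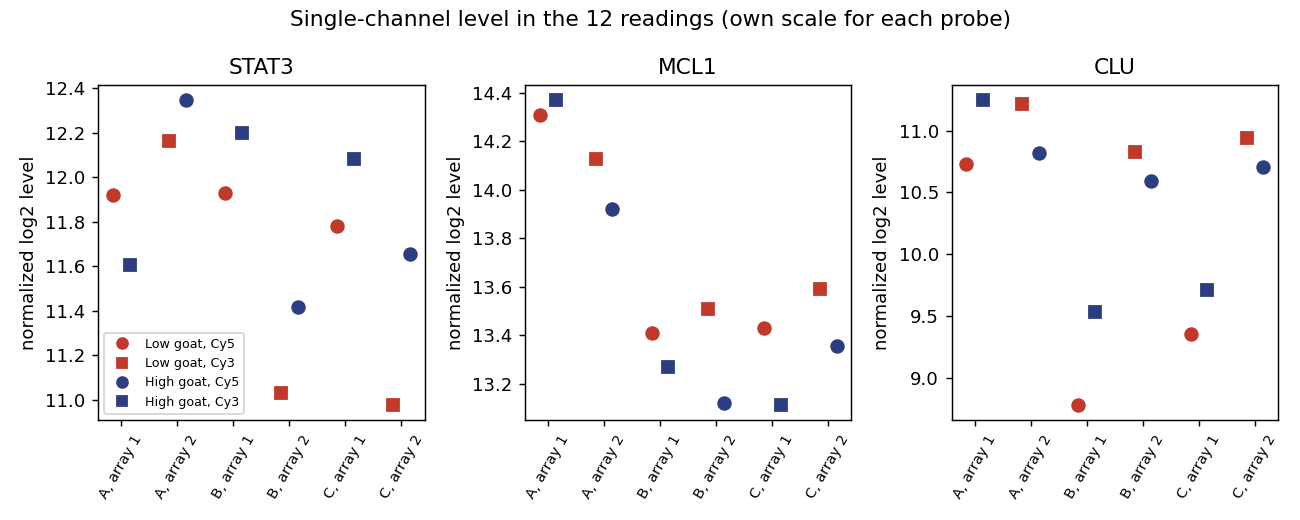
Normalized log2 level of STAT3, MCL1 and CLU in each of the 12 readings, by pair and array, with the Low goat (red) left of the High goat (blue), circles for Cy5 and squares for Cy3. Each panel has its own scale. CLU was lowest in both goats on the first arrays of pairs B and C, and MCL1 was highest in both goats of pair A.

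Probes with the most similar profile over the 6 array ratios were named as a description. For STAT3 these were ORC6, a subunit of the origin recognition complex (Pearson r = 0.94), OSR2 (0.92) and USP46, a deubiquitinase (0.91). For MCL1 they were NDUFC1, a subunit of respiratory complex I, RMND5B and TEDC2 (r = 0.98 each), and for CLU CCDC171, PCK1, a gluconeogenic enzyme gene, and TMEM183A (r from 0.995 to 0.997). Pearson r disregards an offset: the 3 probes like MCL1 were below 0 in pair A, and NDUFC1 was at -0.11, 0.02 and 0.03 over the pairs. The 6 points of each share 3 pairs and 2 dye orientations, and the 3 probes like CLU had dye parts of -0.26 to -0.28 beside pair means between -0.10 and 0.03. Over the 3 pair means, where the dye cancels, other probes came closest. PLPP1, SSBP3 and ZNF143 lay nearest to STAT3 (Euclidean distance 0.17 to 0.22), with PLPP1 at -0.05, -0.20 and -0.46. CNKSR2, RSPO3 and MARK2 lay nearest to MCL1 (0.04 to 0.09), and TM7SF2, a sterol reductase gene, SLC35F2 and RETREG1 nearest to CLU (0.03 to 0.05).

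Genes around STAT3 were read from lists, with 1 probe per gene, and over all 5323 genes tested the median ratio was 0.0033, with 2767 above 0. A dye part passed in 2102 of the 5323, and the SD between pair means does not show it. Of the STAT family 3 genes were measured and 0 passed. STAT5A, above background in 4 Low and 5 High readings of 6 each, was at -0.03 ± 0.08 and STAT5B, its close relative, at 0.03 ± 0.10 (SD, n = 3 each), both nearer to 0 than STAT3, a difference that was not tested. Of the ligands, receptors and kinases upstream of STAT3, 6 were measured, 0 passed, 3 were above 0 and the median was -0.0062. OSMR, the receptor for oncostatin M, was at 0.09 ± 0.06, IL11RA, the interleukin-11 receptor, above background in 4 Low and 3 High readings of 6 each, at -0.05 and IL6, the interleukin itself, at -0.03. The probes of LIFR and IL6R stood above background in 1 and 0 of 12 readings and were not tested. Of 11 inhibitors of STAT signalling 0 passed and 7 were above 0 (median 0.0041). PTPN11, a phosphatase, was at -0.12 ± 0.11, CISH, a cytokine-induced inhibitor, at 0.09 and PTPN6, another phosphatase, at 0.07. SOCS3, which STAT3 itself induces and which blocks the shared receptor, was at 0.0041 ± 0.07.

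Targets of STAT3 and other involution genes gave 0 calls among 15 measured, with 10 below 0 and a median of -0.04. LTF, the lactoferrin gene, had a mean of -0.67 ± 0.56 and was most negative in pair A, the pair in which STAT3 was not below 0. LTF was below 0 on 6 of 6 arrays and did not pass (limma, unadjusted p = 0.00153, adjusted p = 0.170). A2M, a protease inhibitor gene, was at 0.12 ± 0.07 and TF, the transferrin gene, at -0.10 ± 0.10. IGFBP5, a growth factor binding protein that rises in the involuting mouse gland, was at -0.15, 0.03 and -0.15 over the pairs. The probes of CEBPB, BCL3 and IGFBP3 stood above background in 0, 1 and 0 of 12 readings and were not tested. The lysosomal list holds proteases, which are released into the cell in mouse involution, cystatins, which inhibit such proteases, and HEXA, another lysosome gene. Among its 9 measured genes 8 were below 0 and 0 passed (median -0.03), beside 2556 of 5323 genes below 0. HEXA, among these 8, was at -0.06. Its probe stood above background in 2 Low and 4 High readings, so it was tested mainly through the High goats. Of the 9, 4 kept 1 sign in 3 pairs, beside 1900 of the 5323. CST3, the cystatin C gene, was at -0.10 ± 0.08, CTSK, cathepsin K, at -0.09 ± 0.02 and CST6, another cystatin, at -0.05. CTSL, cathepsin L, above background in 4 Low and 4 High readings of 6 each, was at -0.03 ± 0.05.

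Of the pro-survival BCL2 genes 4 were measured, 0 passed and 3 were above 0 (median 0.03). MCL1 stood apart from the others in value, with BCL2L2 at 0.06 ± 0.09, BCL2 at -0.0014 ± 0.03 and BCL2L1 at 0.00048 ± 0.06, while a second, dimmer BCL2L1 probe was at -0.11. The difference between MCL1 and these genes was not tested. Of 9 effectors and BH3-only proteins, the killers of the same family and their relatives, 0 passed and 4 were above 0 (median -4.2e-04). BECN1, which links BCL2 to autophagy, was at 0.12 ± 0.17, BAX, a pore-forming effector, at -0.05 ± 0.06 and BCL2L13, above background in 3 Low and 4 High readings of 6 each, at -0.04. Genes that set the turnover of the MCL1 protein were split, with 5 of 11 above 0 and 0 past the threshold (median -0.0029). FBXW7 and BTRC, which mark it for destruction, were at 0.10 ± 0.05 and 0.11 ± 0.08. FBXW7 was above 0 on 3 arrays and below 0 on 3, with a dye part of 0.25 that passed (limma, adjusted p = 6.35e-04). A dye part passed in 7 of the 11 genes, beside 2102 of 5323. USP9X, which spares it, was at -0.09 ± 0.06 and below 0 on 6 of 6 arrays, as 2.99% of probes were of 1 sign on all. Of the death receptors, caspases and their inhibitors 15 were measured, 0 passed and 7 were above 0 (median -0.0082), with CASP6 at -0.09, PDCD10 at 0.07 and DAXX at 0.07.

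Clusterin partners and genes that clear dead cells gave 0 calls among 8, with 5 above 0 (median 0.01). MFGE8, a milk fat globule protein that marks dying cells for uptake, was at 0.17, 0.37 and -0.06 over the pairs. XRCC6, which encodes the DNA repair protein Ku70, a partner of clusterin, was at -0.07 ± 0.02, but its probe stood above background in 2 Low and 5 High readings of 6 each, so it was tested mainly through the High goats. Of the complement genes 13 of 14 were above 0, beside 2767 of all 5323 genes tested, with a median of 0.04, and 0 passed. Of the 14, 5 kept 1 sign in 3 pairs, beside 1900 of the 5323. A dye part passed in 7 of the 14, beside 2102 of the 5323. C6, part of the terminal complex that clusterin restrains, was at 0.11 ± 0.05 and above 0 on 6 of 6 arrays, though its probe stood above background in 4 Low and 3 High readings of 6 each. C1QB and C1QA, chains of the recognition protein C1q, were at 0.12 ± 0.10 and 0.08 ± 0.05, and C1QC, another chain, at 0.0047. A second C1QA probe was at -0.03, and the single gene below 0 was VTN, the vitronectin gene, at -0.03.

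**Figure D4:**
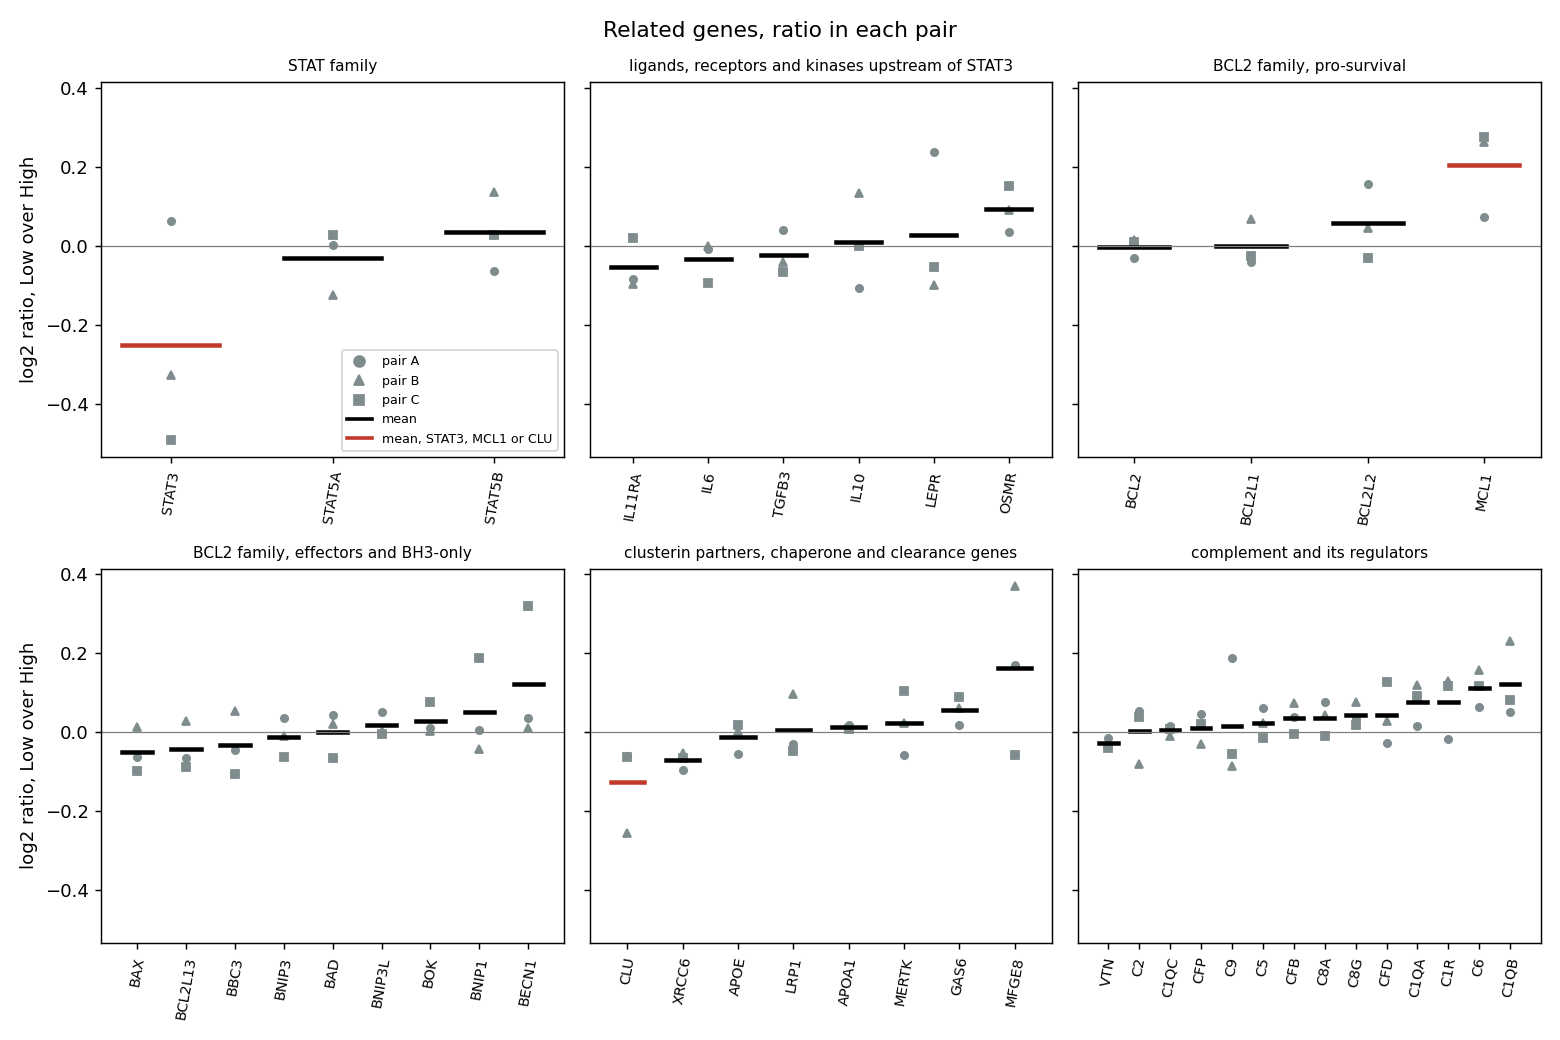
Log2 ratio of Low over High for the measured genes of 6 lists, with a point for each pair and a bar for the mean, STAT3, MCL1 and CLU in red. STAT3, at -0.25, and MCL1, at 0.20, had the means farthest from 0 among the 3 STAT and 4 pro-survival BCL2 genes measured. Both were chosen with earlier results of these data known, and the difference from their relatives was not tested. A mean above 0 was seen in 13 of 14 complement genes, beside 2767 of all 5323 genes tested, and 5 of the 14 kept 1 sign in 3 pairs.

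Markers of cell types were read beside these values. Of 9 luminal epithelial markers 0 passed and 4 were above 0 (median -0.0067). LALBA, the alpha-lactalbumin gene, was at 0.68, 0.94 and 0.04 over the pairs, a mean of 0.55 ± 0.46. It was above 0 on 6 of 6 arrays and did not pass (limma, unadjusted p = 0.00163, adjusted p = 0.170). KRT19 was at -0.13 and CSN3, the kappa-casein gene, at -0.10, while their second, dimmer probes were at -0.036 and -0.07. The log2 of the summed linear levels of the 9 markers, in which the brightest weigh most, ranged from 14.35 to 15.19 in Low goats. In High goats it ranged from 14.38 to 14.89. Of 10 leukocyte markers 0 passed and 7 were above 0 (median 0.02). ITGB2, an integrin chain gene, was at -0.16 and CD68, a macrophage marker, at 0.12. FCGR2B, an Fc receptor gene above background in 3 Low and 4 High readings of 6 each, was at 0.15. The log2 of their summed linear levels, over all 10 markers, was 13.17 to 13.71 in Low goats, against 13.19 to 13.76 in High goats. In these whole-gland samples, fewer cells of a type and less RNA per cell cannot be told apart, and the part of cell makeup in the 3 genes was not tested.

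**Figure D5:**
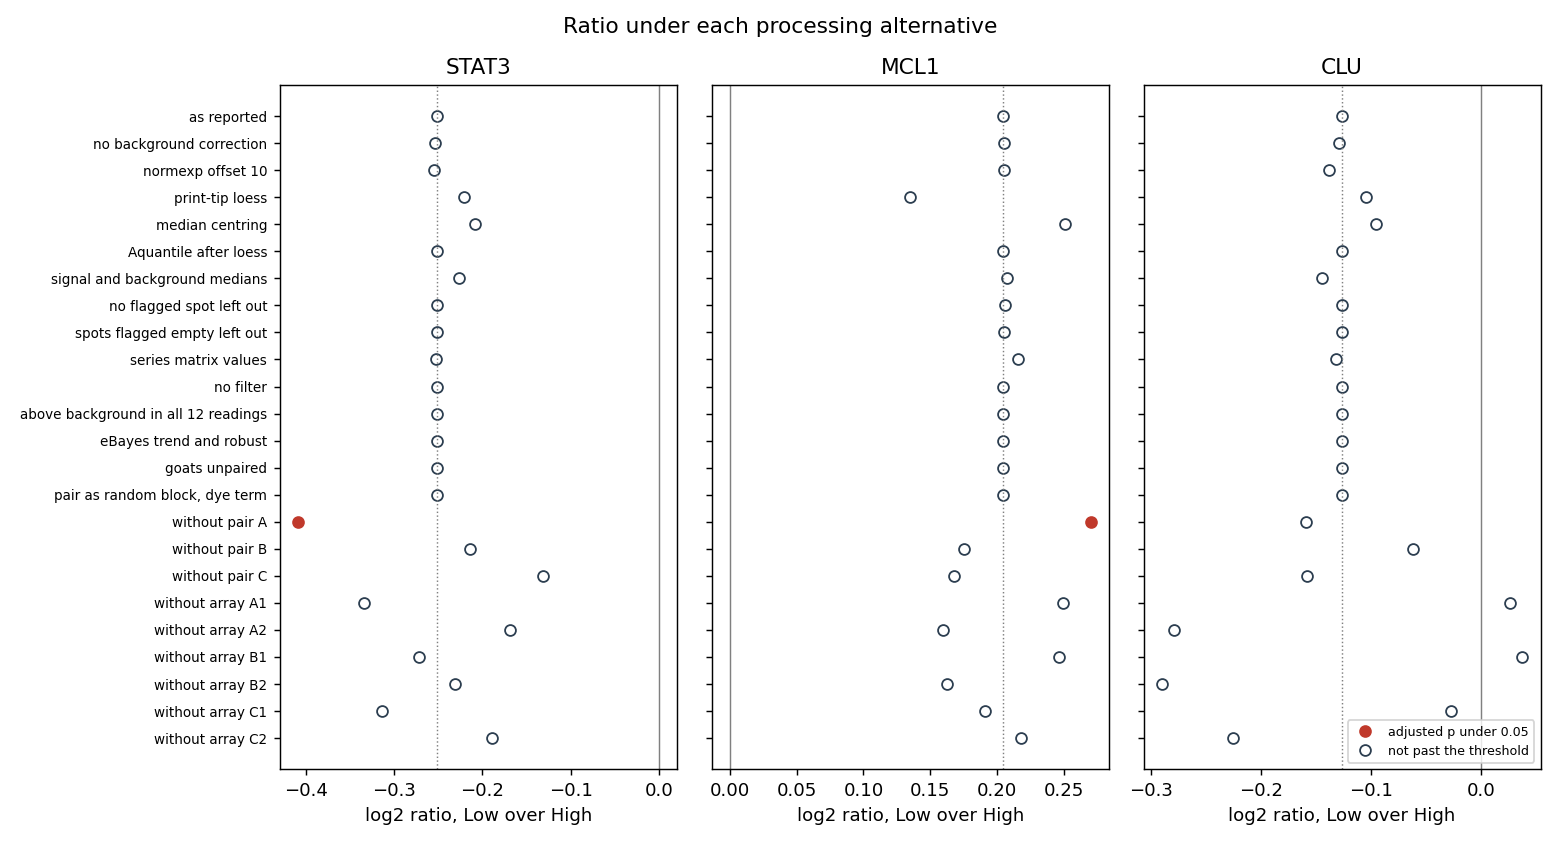
Mean log2 ratio of Low over High for STAT3, MCL1 and CLU as reported and under 23 alternatives, filled where the adjusted p was under 0.05. STAT3 stayed below 0 and MCL1 above 0 in all of them, each passed only without pair A, and CLU crossed 0 without the first array of pair A or of pair B. Alternatives that change only the filter, the test or the normalization between arrays cannot move the mean.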

How the data were processed

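Per the labels, 5 µg of total RNA of each goat was labelled directly and spots were read with ImaGene 6.0. The deposited scanner files give each spot's signal and background intensity on a linear scale for 12 channel readings, with the background not subtracted, and flag and saturation codes in a column of another kind. Channels were matched to goats and dyes through the file headers, all 12 of them matching. The deposited series table gives the authors' log2 ratio per spot, correlated at 0.87 to 0.92 with the ratios computed here, and its normalization is not given in any source used here.

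Intensities were corrected with normexp (offset 50) and normalized by 1 loess curve per array in limma 3.58.1 (R 4.3.3), leaving out 26 to 67 manually flagged or poor spots per array. The 2 spots of a probe, then the 2 arrays of a pair, were averaged. Probes above background by 2 SDs in at least 6 of 12 readings, with values on 6 arrays, were tested: 6733 of 8379. Limma's moderated test of 3 pair means used Benjamini-Hochberg adjustment. The spread pooled over probes weighed as 7.47 degrees of freedom, beside 2 of each probe. The procedure was tested on simulated data. P-values of the ratios thus weigh the spread between these 3 pairs mostly as pooled over all probes, and less as that of the probe itself. Those of the test for differences between pairs weigh the error between arrays of a pair.

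The 3 genes, the lists and the alternatives were chosen with earlier results of these data known. A gene with several probes is read on its brightest. Of each list, members past the threshold, or else the 3 of smallest unadjusted p, are named; STAT5A and STAT5B complete their list. SOCS3, IGFBP5, CTSL, HEXA, C1QC, VTN, second probes and untested genes were named after their values were seen. Similar probes are the 3 of highest Pearson r among those whose range over the arrays is at least 0.5 times the member's, and the 3 of smallest distance.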

Additional observations from a re-analysis of the deposited data

Results flagged for a closer look

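The Low over High ratio of CLU differed between the dye orientations in every pair, with 0.5 times the difference, Low in Cy5 minus Low in Cy3, at -0.42 in log2 units (limma, adjusted p = 3.84e-05, in the same direction in 3 of 3 pairs). That of STAT3 differed likewise, at 0.17 (limma, adjusted p = 0.0113, 3 of 3 pairs), and lost its call without pair A (0.12, limma, adjusted p = 0.162). No array of the 6 stood apart from the others by Dixon's criterion for STAT3, MCL1 or CLU.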

How the results depend on the processing

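STAT3, MCL1 and CLU were refitted under 23 alternatives each. Some of these change only the filter, the test or the normalization between arrays, so they cannot move the ratio, and its unchanged sign there says nothing. Without pair A, which left pairs B and C only, STAT3 (-0.41) and MCL1 (0.27) passed. The count over the whole array then rose as well, to 67 from 30. No other alternative gave a call to any of the 3. Leaving out a pair or an array gave -0.41 to -0.13 for STAT3, 0.16 to 0.27 for MCL1 and -0.29 to 0.038 for CLU, which was above 0 without the first array of pair A (0.03) or of pair B (0.038). These arrays carried the Low goat in Cy5, so their pair was then read in 1 dye orientation. Other settings moved the ratios to between -0.26 and -0.21 for STAT3, 0.13 and 0.25 for MCL1, and -0.14 and -0.10 for CLU. The dye part of CLU passed in 15 of 15 alternatives, some of which could not move its value. That of STAT3 passed in 14 of 15, with 0.12 to 0.22 when a pair was left out, and lost its call without pair A. That of MCL1 was -0.13 to -0.043 when a pair was left out and passed without pair C. The pair differences of STAT3 did not pass in any of 3 alternatives (adjusted p from 0.113 to 0.999). The count past the threshold, 30, was 19 with an offset of 10, 19 with medians, 18 with the series values, 59 with pair as a random block, and 3 to 67 with a pair or an array left out. It was 0 in limma with the goats unpaired, where 11 probes had an unadjusted p under 0.05. The cause of these changes was not tested.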

Other observations

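Survival signalling through PI3K and AKT, and the matrix remodelling that follows cell death in the regressing gland, were read in the same way. Of 15 genes of the PI3K and AKT list 0 passed and 8 were above 0, with a median of 0.02. RPTOR, a subunit of the growth kinase complex mTORC1, was at 0.10 ± 0.06 (SD, n = 3), RELB, an NF-kappaB subunit gene, at -0.09 ± 0.06 and NFKBIA, the inhibitor of NF-kappaB, at -0.06. Of 13 matrix remodelling genes 0 passed and 7 were above 0, with a median of 0.0054. SPARC, a matrix-binding protein gene, was at -0.13 ± 0.03 and below 0 on 6 of 6 arrays, with its probe above background in 3 Low and 4 High readings of 6 each. MMP3, stromelysin-1, was at -0.08 ± 0.10, with its probe above background in 2 Low and 4 High readings, so it was tested mainly through the High goats. PLAU, urokinase, was at -0.07 ± 0.05, and a second, dimmer PLAU probe at -0.01.

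Of 4 fibroblast and matrix markers 0 passed and 3 were below 0, with SPARC as above, VIM, the vimentin gene, at -0.11 ± 0.07 and below 0 on 6 of 6 arrays, and COL6A1, a collagen gene, at -0.0044. Of 4 myoepithelial and smooth muscle markers 0 passed, with KRT17 at -0.10, ACTA2, smooth muscle actin, at -0.08 and CNN1, the calponin gene, at 0.01 (0.06 on a second, dimmer probe). Of 4 adipocyte markers 0 passed, with CIDEC, a lipid droplet protein gene, at -0.07, LIPE, hormone-sensitive lipase, at 0.07, and LEP, the leptin gene, at -0.34, 0.10 and -0.57 over the pairs and a second, dimmer LEP probe at a mean of -0.05. Of 2 endothelial markers 0 passed, with CDH5, a cadherin gene, at -0.08 and VWF, the von Willebrand factor gene, at 0.03.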
